A study of Mus musculus with 6 samples.

Results

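The 9 Pax genes of the mouse, Pax1 to Pax9, were taken by symbol from GENCODE vM21 and matched by Ensembl identifier to the count files, where they are 9 of 50686 counted genes and 9 of 21841 protein-coding genes. They were followed in the RNASeq counts and in the H3K27me3 peak lists of neural stem cells (NSC). NSC came from wild-type embryos at E16.5, and NSC Bmi1Over from STOPFloxBmi1;NestinCre embryos of the same age, in which Cre recombinase under the Nestin promoter removes a stop cassette in front of a Bmi1 transgene in neural progenitors. By the methods of the study, the cells were isolated from the SVZ of the cerebral hemispheres and grown in culture. RNASeq covered 2 independent cultures per group. H3K27me3 ChIPSeq gave 1 peak list per group, after the study had discarded its weakest libraries. The mGIC libraries were not analysed here.

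Pax proteins are transcription factors that bind DNA through a paired domain, and they fall into 4 subgroups by sequence: Pax1 with Pax9, Pax2 with Pax5 and Pax8, Pax3 with Pax7, and Pax4 with Pax6. Each acts in its own set of embryonic tissues, and in the forebrain Pax6 is known as the factor of dorsal progenitors and radial glia. H3K27me3 is the mark set by the Polycomb complex PRC2, it lies over many silent developmental genes, and Bmi1 belongs to PRC1, the complex that binds it.

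By the peak lists, the genes had start sites under H3K27me3 or free of it, and sequences of both kinds are shown. RefSeq windows of 300 bases around the start (GRCm38.p6) were at hand for 7 of the 9 genes, 10 windows in all, and not for Pax3 and Pax4. Those of Pax1, Pax2 and Pax7 are given as examples of start regions under H3K27me3, those of Pax6 and Pax8 as the genes without it, and for Pax4 the one peak nearby. Bases run 5′ to 3′, and capitals mark the dinucleotide CG, which reads CG on both strands.

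Pax1 start region, chr2:147364744-147365043, plus strand: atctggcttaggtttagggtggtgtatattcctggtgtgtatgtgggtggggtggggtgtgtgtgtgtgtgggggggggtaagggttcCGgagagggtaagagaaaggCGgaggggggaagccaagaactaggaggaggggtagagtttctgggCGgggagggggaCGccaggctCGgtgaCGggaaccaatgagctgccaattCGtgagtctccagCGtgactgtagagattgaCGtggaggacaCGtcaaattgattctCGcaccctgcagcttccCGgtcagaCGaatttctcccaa

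Pax2 start region, chr19:44755502-44755801, plus strand: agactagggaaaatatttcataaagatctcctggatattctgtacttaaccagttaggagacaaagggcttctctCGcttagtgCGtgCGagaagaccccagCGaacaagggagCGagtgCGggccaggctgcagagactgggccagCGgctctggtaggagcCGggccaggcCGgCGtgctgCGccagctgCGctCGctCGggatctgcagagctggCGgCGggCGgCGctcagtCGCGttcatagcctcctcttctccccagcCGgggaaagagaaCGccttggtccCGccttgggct

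Pax7 start region, chr4:139832919-139833218, minus strand: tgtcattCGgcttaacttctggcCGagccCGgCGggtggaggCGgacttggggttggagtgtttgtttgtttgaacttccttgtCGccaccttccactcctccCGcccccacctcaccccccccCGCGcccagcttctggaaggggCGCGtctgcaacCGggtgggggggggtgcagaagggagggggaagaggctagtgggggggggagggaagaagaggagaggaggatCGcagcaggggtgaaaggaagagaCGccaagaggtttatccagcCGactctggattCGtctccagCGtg

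Pax6 start region, chr2:105668646-105668945, plus strand: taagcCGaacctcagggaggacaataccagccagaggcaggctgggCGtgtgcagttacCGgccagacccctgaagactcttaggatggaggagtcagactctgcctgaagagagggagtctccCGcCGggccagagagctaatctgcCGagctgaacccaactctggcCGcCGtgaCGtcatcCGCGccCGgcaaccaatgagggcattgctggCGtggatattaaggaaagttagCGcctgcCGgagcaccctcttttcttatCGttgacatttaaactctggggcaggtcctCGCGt

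Pax8 start region, chr2:24475550-24475849, minus strand: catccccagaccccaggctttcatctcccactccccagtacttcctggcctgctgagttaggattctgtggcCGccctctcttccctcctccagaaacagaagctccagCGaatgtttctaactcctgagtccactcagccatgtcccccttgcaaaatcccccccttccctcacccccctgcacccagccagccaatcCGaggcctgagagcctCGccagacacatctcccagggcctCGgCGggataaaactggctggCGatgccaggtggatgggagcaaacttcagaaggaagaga

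Pax4 upstream peak, chr6:28453250-28453449, plus strand: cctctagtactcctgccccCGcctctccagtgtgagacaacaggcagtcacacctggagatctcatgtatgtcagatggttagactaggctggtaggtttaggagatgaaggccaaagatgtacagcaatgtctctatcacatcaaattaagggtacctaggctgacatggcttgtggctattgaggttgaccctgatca

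The printed windows of Pax1, Pax2 and Pax7 hold 13, 23 and 17 CG, that of Pax6 holds 18 and that of Pax8 holds 7, beside a median of 7 over all 32851 RefSeq windows. As many CG or more were found in 37.9%, 21.5% and 31.4% of all windows for Pax1, Pax2 and Pax7, in 29.7% for Pax6 and in 52.1% for Pax8. In NSC all 300 bases of these windows of Pax1, Pax2 and Pax7 lay under a peak, and none of the bases for Pax6 or Pax8. In the NSC Bmi1Over list the printed Pax2 and Pax7 windows were again covered over all 300 bases, and the Pax1 window over 0. Pax2 has 2 further windows, with 7 and 30 CG, which lay under NSC peaks over all 300 bases and under NSC Bmi1Over peaks over 53 and 0. Pax6 has a further window with 16 CG and no covered base. The single windows of Pax5 and Pax9, with 23 and 11 CG, were covered over 300 bases each in NSC and over 292 and 300 in NSC Bmi1Over.

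Counted reads ranged from 18112100 to 61353076 per RNASeq library, and the unmapped share from 11.2% to 17.6%. All 12 markers of neural stem cells passed the filter for testing, with a summed level of 6449 to 7314 CPM (counts scaled to the normalised library size), while those of mesenchymal cells summed to 0.927 to 1.26 CPM and those of erythroid cells to 0.400 to 0.602 CPM, Hba-a1, Hbb-bs and Hbb-bt being at 0. The level of Bmi1, the gene of the transgene, was 133 and 124 CPM in NSC and 119 and 113 CPM in NSC Bmi1Over (log2 fold change −0.15, adjusted p = 0.463, 95% interval −0.43 to 0.13, edgeR). The Bmi1 gene thus goes against the label, as its level was not higher in the libraries labelled NSC Bmi1Over. Directions below are therefore those of the libraries labelled NSC Bmi1Over. Whether reads of the transgene fall on the annotated gene was not tested. Markers of neurons summed to 830 to 962 CPM, astrocytes to 388 to 472 and the oligodendrocyte lineage to 237 to 485. Those of endothelial cells summed to 4.18 to 7.65 and of microglia to 1.33 to 3.17, and 0 of these markers were called. The neuron sum rested largely on Map2, with 788 to 919 CPM, and its other members ran from 0 (Stmn2) to 25.4 CPM (Tubb3). Slc1a2 had 196 to 316 CPM, and the other astrocyte markers ran from 0.343 (Gfap) to 113 CPM (Aldoc). Cspg4 had 197 to 424 CPM, and the other oligodendrocyte lineage markers ran from 0.0634 (Mog) to 44.5 CPM (Pdgfra). Of the 15521 genes tested with edgeR's quasi-likelihood F-test, 334 were called at an adjusted p under 0.05, which is 2.15%. This share counts both directions, with 315 genes higher and 19 lower in NSC Bmi1Over. These are bulk cultures, in which fewer cells of a type and less RNA per cell cannot be told apart.

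Pax6 carried nearly all of the Pax signal. It took 98.1% of all reads on Pax genes in NSC replicate 1 (95% Wilson interval 97.2% to 98.8%), 97.0% in NSC replicate 2 (95.7% to 97.9%), 95.2% in NSC Bmi1Over replicate 1 (93.2% to 96.7%) and 96.9% in NSC Bmi1Over replicate 2 (95.9% to 97.6%). The other 8 genes together had 23, 28, 28 and 55 reads in these libraries. Intervals cover counting error only. Per length, as TPM (counts divided by exon length and scaled to the same sum in each library, without the TMM factors that CPM and the tests use), the order began with Pax6 and then Pax4 in each of the 4 libraries. Below these, Pax9 and Pax3 exchanged places between libraries, and the remaining 5 genes stood at 3 reads or fewer in all but 1 of 20 values, Pax7 in NSC Bmi1Over replicate 2, so that their order is not resolved.

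**Figure D1:**
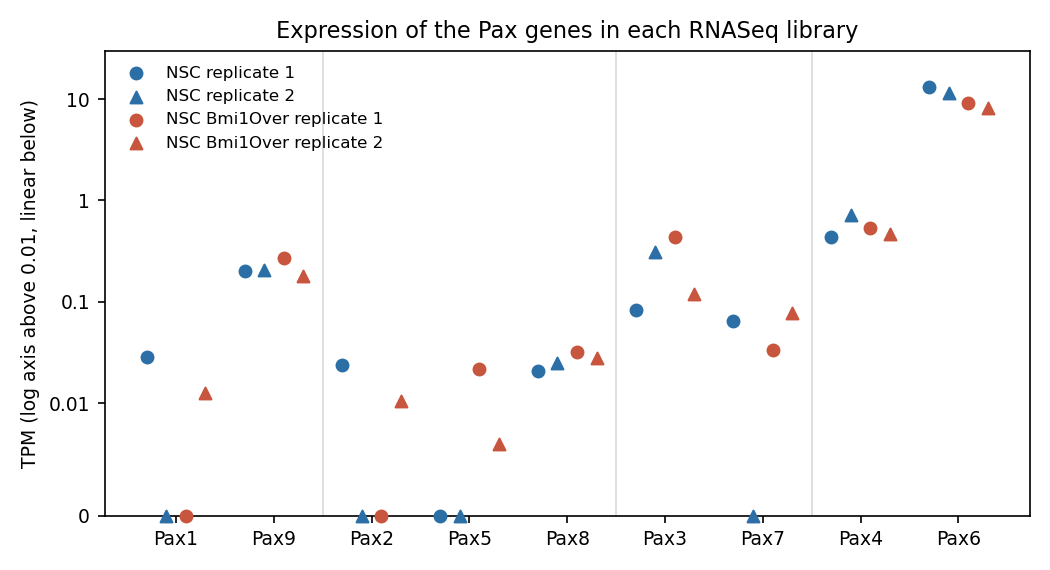
TPM of each Pax gene in each of the 4 RNASeq libraries, ordered by subgroup, on a log axis above 0.01. Circles and triangles are replicates 1 and 2, blue is NSC and red the libraries labelled NSC Bmi1Over. Pax6 sits between 8.17 and 13.2 TPM and every other gene stays below 1 TPM.

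Pax1 and Pax9 act in the sclerotome, the pharyngeal pouches and, for Pax9, the teeth. Pax1 (chr2:147361925-147393295, plus strand) had 1 and 0 reads in NSC and 0 and 1 reads in NSC Bmi1Over. Pax9 (chr12:56691767-56712822, plus strand) had 8 and 7 reads in NSC and 7 and 16 reads in NSC Bmi1Over, or 0.254 and 0.277 CPM in NSC and 0.400 and 0.280 CPM in NSC Bmi1Over. Pax1 was thus at the limit of detection in all libraries, since a count of 0 allows up to 3 reads, or 0.0524 CPM in the deepest library and 0.171 CPM in the shallowest. By CPM both values of Pax9 in NSC Bmi1Over lay above both in NSC, by TPM (0.201 and 0.206 TPM in NSC and 0.268 and 0.179 TPM in NSC Bmi1Over) the groups overlapped, and the gene did not pass the filter for testing. The last base pairs of Pax9 overlap Slc25a21, a mitochondrial carrier gene with at most 3 reads per library, and reads shared by overlapping genes were not counted.

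Pax2, Pax5 and Pax8 act in kidney and midbrain, in B cells and in thyroid, respectively. Pax2 (chr19:44756045-44837871, plus strand) had 1 and 0 reads in NSC and 0 and 1 reads in NSC Bmi1Over. Pax5 (chr4:44524757-44710487, minus strand), which commits lymphoid progenitors to the B cell lineage, had 0 and 0 reads in NSC and 1 and 1 reads in NSC Bmi1Over. Pax8 (chr2:24420560-24475599, minus strand) had 1 and 1 reads in NSC and 1 and 3 reads in NSC Bmi1Over. None of these values exceeds 3 reads, and no difference between the groups was detectable at this depth.

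Pax3 and Pax7 pattern the dorsal neural tube and mark neural crest and muscle progenitors. Pax3 (chr1:78101267-78197134, minus strand) had 4 and 13 reads in NSC and 14 and 13 reads in NSC Bmi1Over, or 0.127 and 0.514 CPM in NSC and 0.800 and 0.228 CPM in NSC Bmi1Over. The groups overlapped, and the difference stayed within the spread between cultures (log2 fold change 0.42, SE 0.78, 95% interval −1.36 to 2.21, adjusted p = 0.758, edgeR). Without NSC replicate 1 this value became −0.27 and without NSC Bmi1Over replicate 1 it became −0.42, so its direction is not resolved. Without NSC replicate 2 it was 1.73 and without NSC Bmi1Over replicate 2 it was 1.38. Pax7 (chr4:139737062-139833528, minus strand) had 3 and 0 reads in NSC and 1 and 8 reads in NSC Bmi1Over, too few for the test.

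Pax4 and Pax6 are the remaining pair. Pax4 (chr6:28442334-28449353, minus strand), which specifies insulin-producing cells in the pancreatic islet, had 5 and 7 reads in NSC and 4 and 12 reads in NSC Bmi1Over. On the per-length scale this short transcript came to 0.440 and 0.722 TPM in NSC and 0.536 and 0.469 TPM in NSC Bmi1Over, with overlapping groups, and it did not pass the filter.

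Pax6 (chr2:105668900-105697364, plus strand) was the only member at a level over 1 CPM. It had 1217 and 910 reads in NSC and 558 and 1693 reads in NSC Bmi1Over. Its level was 38.6 and 36.0 CPM in NSC and 31.9 and 29.6 CPM in NSC Bmi1Over and 13.2 and 11.6 TPM in NSC and 9.24 and 8.17 TPM in NSC Bmi1Over. Both NSC values were above both values of NSC Bmi1Over on either scale. The means were 37.3 ± 1.82 CPM in NSC and 30.8 ± 1.59 CPM in NSC Bmi1Over (SD, n = 2 each), and by TPM Pax6 stood at the 57.4 to 60.5 percentile of protein-coding genes in the 4 libraries. The log2 fold change of −0.28 (SE 0.13, 95% interval −0.57 to 0.0049) did not pass the test, with an adjusted p = 0.213 by edgeR over all 15521 genes, and it was negative in each of the 12 alternative settings. With library size alone in place of TMM it was −0.43, with an adjusted p = 0.0976. The antisense gene Pax6os1 overlaps Pax6 and had at most 2 reads per library. The forward and reverse columns of each library held nearly equal totals, such as 15610455 and 15638578 reads in NSC replicate 1, so that sense and antisense reads cannot be told apart. Their sums for Pax6 equalled its unstranded counts.

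In all, 2 of the 9 Pax genes were tested and 0 were called, beside 2.15% of all genes tested. By edgeR 0 passed an unadjusted p of 0.05, and DESeq2 called 0 as well. In 3 of the 12 alternatives the unadjusted p of Pax6 by edgeR was under 0.05, at 0.0128 with library size alone, 0.0242 with the replicate block and 0.0323 without NSC Bmi1Over replicate 1. The other 7 had too few reads to pass the filter. With no filter beyond 1 read all 9 were tested and 0 called. With 2 cultures per group, an exact permutation test of a single gene gives no two-sided p below 0.333.

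Likeness over the 4 libraries was measured on the log2 of CPM plus 0.5, centred on the mean of each gene. The protein-coding genes nearest to Pax6 were Naa30, Nab1 and Pde6d, at Euclidean distances of 0.013, 0.020 and 0.021 among 4798 genes of like level. Nearest to Pax3 were Mab21l2, Foxd2 and Tex14, at distances of 0.208, 0.308 and 0.314 among 898 genes. The added 0.5 is close in size to the Pax3 values of 0.127 to 0.800 CPM and shrinks these distances. None of the 6 was called. Over 4 libraries such likeness says only that the values run alike.

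Promoters were windows of 5 kb on either side of any annotated start site. In NSC, 7 of the 9 Pax genes had a peak in such a window, beside 8.89% of the 22028 protein-coding genes. In the NSC Bmi1Over list, 6 of 9 did, beside 4.44%. Pax1, Pax2, Pax3, Pax5, Pax7 and Pax9 were marked in both lists, Pax4 in NSC only, and Pax6 and Pax8 in neither. With 1 library per group these differences have no replicate check.

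Of protein-coding genes under 1 CPM, 12% had a promoter peak in NSC and 6.78% in NSC Bmi1Over, against 7 and 6 of the 8 Pax genes under 1 CPM. Among genes under 1 CPM with at least 50% GC and an observed over expected CpG ratio of at least 0.6 within 500 bp of the most upstream start site, 44.4% were marked in NSC and 30.1% in NSC Bmi1Over, beside 7.48% and 3.59% of the other genes under 1 CPM. Pax1, Pax2, Pax3, Pax7 and Pax9 were of this kind, with ratios of 0.655, 0.699, 0.669, 0.638 and 0.631, and were marked in both lists. Pax5 had a ratio of 0.679 at a GC content of 47.2%. Pax4 and Pax8 had ratios of 0.0517 and 0.221, and the median of all genes was 0.555. Pax6, at 29.6 to 38.6 CPM and so outside the genes under 1 CPM, had no peak. Its ratio of 0.568 was below those of the 6 genes marked in both lists. By CG count its RefSeq windows, with 18 and 16, lay within the 7 to 30 of the windows at hand for these genes. The part of CpG content in the marking was not tested.

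**Figure D2:**
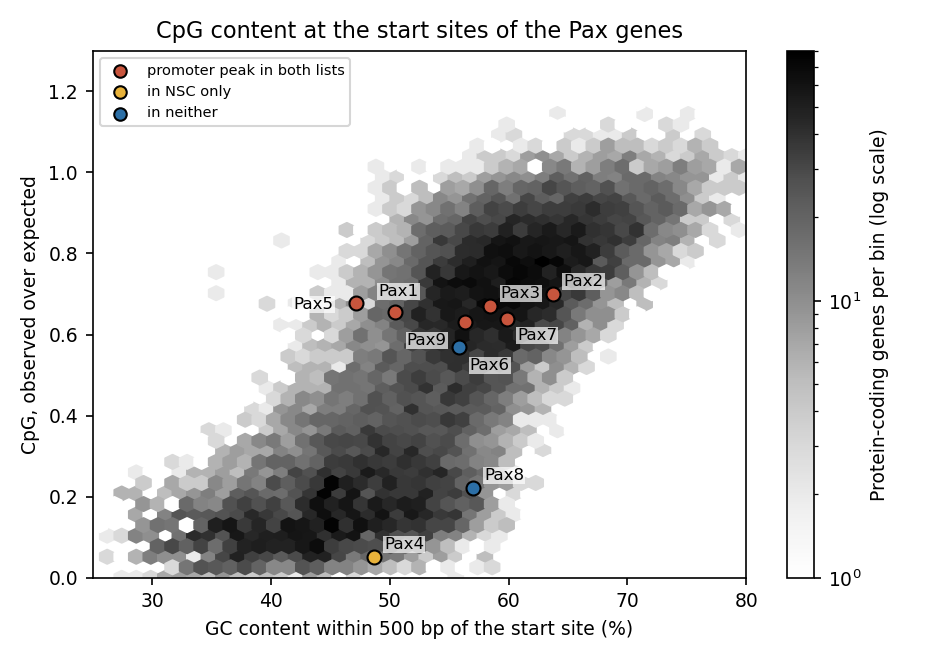
GC content (x axis, %) against observed over expected CpG (y axis) within 500 bp of the most upstream start site, with 21751 protein-coding genes as a grey density and the Pax genes as points coloured by their promoter peaks. The 6 genes marked in both lists lie at ratios of 0.631 to 0.699, Pax8 and Pax4 lie at 0.221 and 0.0517, and Pax6 lies at 0.568.

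At the 6 genes marked in both lists the NSC peaks were among the widest found. The widest peak at Pax9 measured 28910 bp and was number 14 by length of the 12982 NSC peaks, whose median was 355 bp. Counted from the most upstream start site of Pax9, it reached from −12591 to 16318 bp. The widest peaks at Pax2 and Pax3 measured 24981 bp and 24660 bp and held places 22 and 25, that at Pax5 measured 22157 bp and held place 34. Pax7 and Pax1 had peaks of 16515 bp and 11558 bp, at places 73 and 125. Each of these 6 peaks spanned an annotated start site, and their fold enrichment lay between 7.47 and 8.85, with a list median of 4.06.

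In the NSC Bmi1Over list rows of separate peaks lay over the same genes. The widest measured 7751 bp at Pax9, 6851 bp at Pax2, 4969 bp at Pax5, 4893 bp at Pax7, 4369 bp at Pax3 and 4308 bp at Pax1. From first to last base the Pax genes met 50 peaks of the NSC list and 74 of the other, with median lengths of 520 and 651 bp. Peaks covered 124036 bp of them in NSC against 80772 bp, which is 65.1% of the former, and the mean fold enrichment weighted by length was 7.35 and 5.56. The median fold over all peaks at the Pax genes went the other way, with 4.30 and 5.33, as did that of the whole lists, with 4.06 and 4.8. The lists as a whole held 11542075 bp and 4807073 bp, a ratio of 41.6%. Their lowest fold enrichments were 3.52 and 4.03, so that the lists do not end at the same level. By its methods, the study had a higher read total for one NSC ChIPSeq library than for either library of NSC Bmi1Over, and did not name those it kept. Depth and group therefore cannot be told apart in the covered length, the number of peaks or their breaks.

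**Figure D3:**
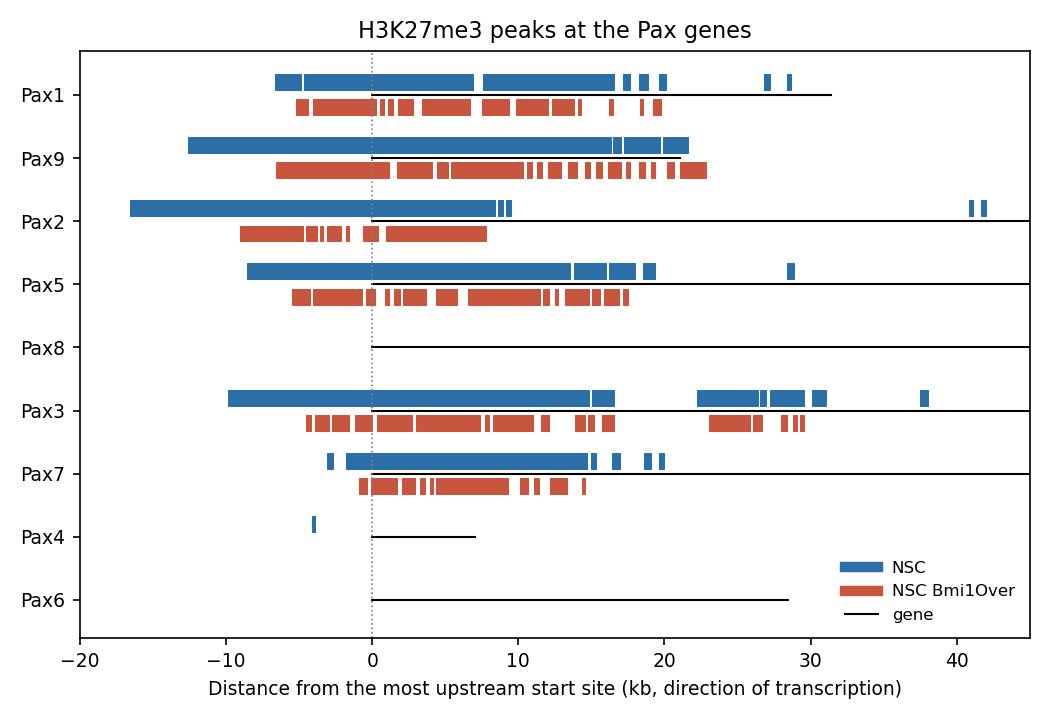
H3K27me3 peaks of NSC (blue) and of the library labelled NSC Bmi1Over (red) at each Pax gene, by distance in kb from the most upstream start site in the direction of transcription, from 20 kb before to 45 kb behind it. Black lines are the genes. The long NSC blocks at 6 genes face rows of separate blocks, Pax4 has a single block of 200 bp, and Pax6 and Pax8 have none.

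By share of its length, Pax9 was covered most, and by covered bases Pax3, with 34524 bp in NSC and 21610 bp in NSC Bmi1Over. For Pax9, NSC peaks lay over 97.1% of its 21056 bp and NSC Bmi1Over peaks over 69.2%. Pax1 was covered over 57.6% and 38.0% of its length. Pax3 followed with 36.0% and 22.5%. For the long genes Pax2, Pax7 and Pax5 the shares were 18.0% and 11.3%, 17.0% and 10.7%, and 10.7% and 7.05%. Pax2 also had a peak of 6431 bp over its 3′ end (chr19:44833837-44840267) in NSC, where the other list held 3 shorter peaks.

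The covered length was lower in NSC Bmi1Over at each of the 6. It was 62.9% of the NSC value at Pax2, 66.1% at Pax5, 62.6% at Pax3, 62.7% at Pax7, 65.9% at Pax1 and 71.3% at Pax9. For the 116 protein-coding genes with at least 10000 bp under NSC peaks, these 6 included, the median was 49.4% (quartiles 33.2% and 71.3%). As these genes were chosen by their coverage in NSC, a ratio under 100% is favoured by the choice. Of the bases covered in NSC Bmi1Over at the Pax genes, 97.7% were also covered in NSC, and 87.0% over the whole lists. These are values of 1 library each, with no test.

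**Figure D4:**
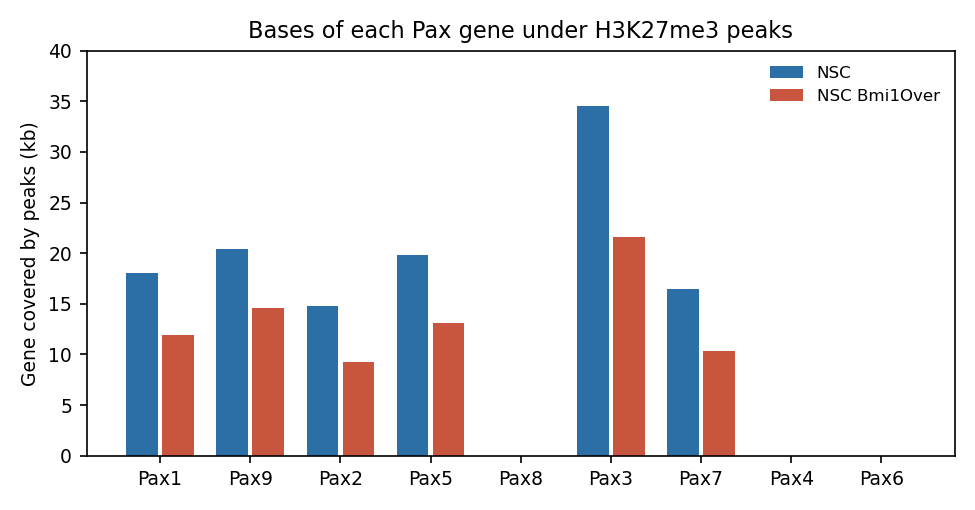
Length of each Pax gene covered by H3K27me3 peaks (kb, from the first to the last annotated base) in NSC (blue bars) and in the library labelled NSC Bmi1Over (red bars), 1 library each. The 6 covered genes have 62.6% to 71.3% of the NSC length in the second library, and Pax4, Pax6 and Pax8 have 0 in both.

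At each of the 6 covered genes the NSC peaks held a larger share of the CG than of the bases. At Pax2, NSC peaks covered 18.0% of the gene and 40.3% of its CG, at Pax7 17.0% and 36.0%, at Pax1 57.6% and 81.4%, at Pax3 36.0% and 48.8%, and at Pax5 10.7% and 16.3%. At Pax9, covered almost throughout, the shares were 97.1% and 99.0%.

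The peak at Pax4 stands apart from these. It was 200 bp long (chr6:28453250-28453449, sequence above) and lay 3897 bp before the gene, in the stretch between Pax4 and Snd1. It touched no annotated protein-coding gene, held 1 CG and had a fold enrichment of 3.52, the lowest in the list. At a fold of at least 5, a −log10 q of at least 3, a length of at least 1000 bp or a window of 1 kb it was lost, which leaves 6 marked Pax genes in NSC. Around Pax6 the nearest peak of the NSC list was 439273 bp away and that of the other list 438537 bp, and around Pax8 it was 813605 bp and 813738 bp.

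Of the 18 nearest protein-coding genes on either side of the Pax genes, 3 had a promoter peak, the same in both lists, beside 8.89% and 4.44% of protein-coding genes. They were Foxa2 beside Pax1, Sgpp2 beside Pax3 and Nkx2-9 beside Pax9. Foxa2, a floor plate and endoderm factor, had 1 read in all, and Nkx2-9, a ventral neural factor, had 0. Nkx2-2, the other neighbour of Pax1, had no peak and 18.7 and 18.1 CPM in NSC and 21.2 and 18.7 CPM in NSC Bmi1Over. Next to Pax6, Elp4, an Elongator subunit whose gene holds enhancers of Pax6, had 28.4 and 24.1 CPM in NSC and 21.7 and 17.3 CPM in NSC Bmi1Over (log2 fold change −0.44, adjusted p = 0.15, edgeR). Both NSC values of Elp4 were above both of NSC Bmi1Over. Rcn1, on the other side, had 208 and 243 CPM in NSC and 307 and 345 CPM in NSC Bmi1Over (log2 fold change 0.53, adjusted p = 0.09, edgeR), with both values of NSC Bmi1Over higher. Beside Pax7, Klhdc7a had 4.18 and 6.72 CPM in NSC and 10.5 and 11.3 CPM in NSC Bmi1Over (log2 fold change 1.01, adjusted p = 0.0682, edgeR), the largest difference among the tested neighbours, and the groups did not overlap. Of the 13 neighbours tested 0 were called, with 2.15% called over all genes. The 12 genes that overlap a Pax gene, most of them on the opposite strand, had at most 3 reads in any library.

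Lists of genes that work with or beside the Pax genes were read in the same way. Among 14 genes of the dorsal telencephalon, Pax6 included, 7 were tested and 0 called, with 2.15% called over all genes. The median log2 fold change of −0.28 is the value of Pax6 itself, so the list adds nothing separate to it, and the median over all genes tested was −0.01. Lhx2 and Nr2f1, cortical patterning factors, were highest per length. Lhx2 had 56.6 and 58.7 CPM in NSC and 41.8 and 50.8 CPM in NSC Bmi1Over (log2 fold change −0.31, adjusted p = 0.201, edgeR) and Nr2f1 had 48.5 and 45.8 CPM in NSC and 51.0 and 44.4 CPM in NSC Bmi1Over (log2 fold change 0.01, adjusted p = 0.963, edgeR). Promoter peaks stood at 12 of the 14 in NSC and 11 in NSC Bmi1Over, Lhx2 among them in both lists and Nr2f1 in NSC. Pax6 and Gli3 were the members without one in NSC.

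Of 16 genes of the ventral telencephalon 10 were tested, 1 rose and 0 fell, with 2.15% called over all genes. The one that rose was Nkx2-1, the factor of the medial ganglionic eminence, which had 0.380 and 0.316 CPM in NSC and 1.43 and 1.49 CPM in NSC Bmi1Over (log2 fold change 2.05, adjusted p = 0.0374, edgeR). The groups did not overlap, but without NSC replicate 1 or without NSC Bmi1Over replicate 2 its adjusted p was 0.0638 and 0.108. The list was led by Olig1 and Olig2, oligodendrocyte lineage factors, per length. Olig1 had 1419 and 1364 CPM in NSC and 1284 and 1020 CPM in NSC Bmi1Over, and Olig2 had 825 and 931 CPM in NSC and 1007 and 982 CPM in NSC Bmi1Over. Neither was called. The median of the list was −0.20, and 13 and 11 members had promoter peaks.

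Of 16 genes that divide the spinal cord and hindbrain into progenitor domains, 8 were tested, 0 rose and 1 fell. Beside this, the 2.15% called over all genes were 315 higher and 19 lower. The gene that fell was Dbx2, a homeodomain factor of intermediate progenitors. It had 39.9 and 38.3 CPM in NSC and 23.5 and 19.9 CPM in NSC Bmi1Over (log2 fold change −0.86, adjusted p = 0.0311, edgeR). It was the highest of the list per length, ahead of Nkx2-2, and had no promoter peak. The call was kept in all 12 alternative settings. In this list 6 genes had 0 reads in all libraries, each with a promoter peak in both lists, and 13 and 12 of the 16 were marked in NSC and NSC Bmi1Over. The median was 0.10.

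Of 12 genes often given as Pax6 targets in neural progenitors, 10 were tested and 0 called, beside 2.15% of all genes, with a median of 0.12. Fabp7, the radial glia lipid-binding protein, had 1411 and 1425 CPM in NSC and 1177 and 943 CPM in NSC Bmi1Over (log2 fold change −0.42, adjusted p = 0.234, edgeR). Tnc, a matrix glycoprotein, had 1065 and 1502 CPM in NSC and 1465 and 1884 CPM in NSC Bmi1Over (log2 fold change 0.38, adjusted p = 0.348, edgeR). Of 20 partners and corepressors of Pax proteins, 18 were tested and 0 called, again beside 2.15%, with a median of −0.05. Sox2, which binds together with Pax6, had 260 and 216 CPM in NSC and 179 and 177 CPM in NSC Bmi1Over (log2 fold change −0.42, adjusted p = 0.129, edgeR), and Aes, a Groucho-related corepressor, had 248 and 235 CPM in NSC and 215 and 199 CPM in NSC Bmi1Over (log2 fold change −0.22, adjusted p = 0.334, edgeR). Promoter peaks stood at 5 targets and 7 partners in NSC and at 3 and 5 in NSC Bmi1Over.

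The last lists were genes of the tissues in which the low Pax genes act. In the kidney list, Wt1 and Lhx1 had 0 reads, and all 5 genes, Ret and Gdnf included, had a promoter peak in both lists. Of the thyroid list 2 of 6 were marked in each library, of the muscle list 3 and 2 of 6, of the B cell list 1 of 5, of the islet list 3 of 6, of the sclerotome and pharyngeal pouch list 3 of 6, and of the neural crest and melanocyte list 2 of 6. Highest per length were Sox9 and Msx1 in the sclerotome list, Ebf1 and Cd79a in the B cell list and Mitf and Sox10 in the neural crest list. In the thyroid, muscle and kidney lists they were Nkx2-1 and Slc5a5, Myod1 and Met, and Ret and Gdnf. Sox9, also a listed marker of neural stem cells, had 84.0 to 125 CPM. Ebf1 had 6.75 to 17.7 CPM, Mitf 5.04 to 5.98 and Sox10, also a listed oligodendrocyte lineage marker, 0.286 to 4.64. The others named here had at most 2.57 CPM (Msx1). On average, 4 of 6 genes of the sclerotome list, 4 of 5 of the B cell list and 4 of 6 of the neural crest list were under 1 CPM. Over all lists without the Pax genes, 61 of 108 genes were tested, 1 was called higher and 1 lower, beside 2.15% called over all genes. Of the 108, 62 had a promoter peak in NSC and 53 in NSC Bmi1Over, beside 8.89% and 4.44% of protein-coding genes.

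**Figure D5:**
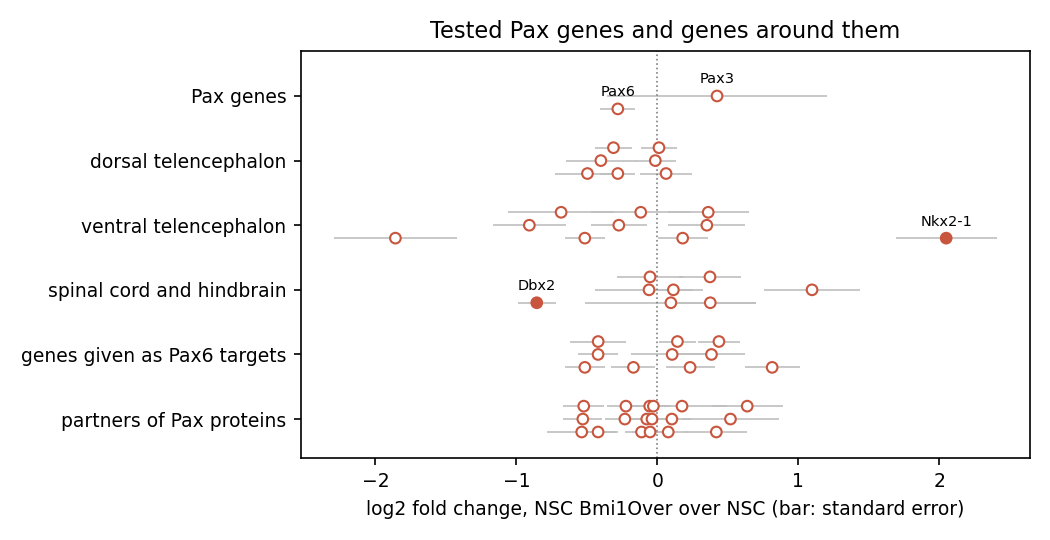
log2 fold change of NSC Bmi1Over over NSC (x axis, bars are standard errors) for the tested Pax genes and the tested members of 5 lists, 1 point per gene. Filled points passed the test. These are Nkx2-1 at 2.05 and Dbx2 at −0.86, and Pax6 at −0.28 and Pax3 at 0.42 are open.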

How the data were processed

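RNASeq and H3K27me3 ChIPSeq of NSC and NSC Bmi1Over cultures were used. RNASeq reads were trimmed (Trim Galore) and mapped to mm10 (STAR), and the authors deposited the raw count per gene. For ChIPSeq, the authors used Bowtie2 2.3.4, dropped multi-mapped reads, discarded the weakest libraries and ran MACS2 in its broad mode. The deposited lists give a fold enrichment (a ratio to background) and the −log10 of the p-value and q-value. The versions of STAR and MACS2 were not given in the sources used here.

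Of 50686 gene identifiers 50462 were found in GENCODE vM21, whose coordinates are those of mm10. Genes kept by filterByExpr entered the quasi-likelihood fit of edgeR 4.0.16 on unstranded counts, with TMM scaling, in R 4.3.3, with Benjamini-Hochberg adjustment. Unmapped, multi-mapped, ambiguous and unassigned reads stayed out, which left 65.9% to 72.2% of reads on genes, or 18112100 to 61353076 per library. The estimated biological variation between cultures was 12.9%. The fit was tested on simulated data. TPM and CPM were computed from the counts. Peaks were analysed in Python 3.11.15. A promoter peak overlapped a window of 5 kb around any start site by at least 1 bp. Sequences came from RefSeq windows and, for the Pax4 peak, the GRCm38.p6 genome. Alternatives were DESeq2 1.42.0, other scalings, filters and columns, a replicate block, leaving out cultures, stricter peak limits, and other windows around the genes.

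Named genes were the Pax genes, genes overlapping them or beside them, Bmi1, the 3 genes most alike to each tested member, and called members and the 2 highest members of each list, some of which are not reported here. Members and lists were chosen with earlier results of these data known.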

Additional observations from a re-analysis of the deposited data

How the results depend on the processing

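Across the 12 alternatives for expression, 0 Pax genes were called and the log2 fold change of Pax6 stayed between −0.43 and −0.23, with adjusted p from 0.0851 to 0.921. The value for Pax3 ran from −0.42 to 1.73 when single cultures were left out, and Pax3 was not tested with at least 1 CPM required in 2 libraries. Library size alone moved the median of all genes by −0.15 and the Pax6 value to −0.43.

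Counts of calls depended on the setting. Of the listed genes 2 were called, against 8 with DESeq2, 6 with library size alone, 14 with no filter and 1 to 13 without single cultures (1 without NSC replicate 1, 9 without NSC replicate 2, 13 without NSC Bmi1Over replicate 1 and 6 without replicate 2 of that group). Over all genes the 334 calls, 94.3% of them higher, became 1488, 537 (64.4% higher), 2356 and 176 to 2546 in the same order. With the replicate block 21 listed genes and 3459 genes were called, and Pax6 had −0.28 with an adjusted p = 0.0851. The difference between replicates 1 and 2 in NSC had a correlation of 0.235 over the genes tested with that in NSC Bmi1Over. Only the replicate numbers pair these cultures, and swapping the numbers in a single group would turn the sign. The causes were not tested.

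The 6 broadly marked Pax genes kept a promoter peak under each of the 6 alternatives in both lists. Under the 3 stricter peak limits the covered length was 105307 to 115877 bp in NSC and 58684 to 71051 bp in NSC Bmi1Over, and with 5 kb added on either side of each gene it was 155907 and 105529 bp. For 7 of the Pax genes the reads were too few to pass the filter, and depth and group cannot be told apart in the peak lists.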
